A study of Homo sapiens with 6 samples.

Results

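Interferon-stimulated and RNA-sensing genes were followed in SiHa cells, an established human line derived from a cervical carcinoma, after transfection with an RNA duplex. The 39 genes were a listed set: 10 sensors of foreign RNA and their adaptor, 5 transcription factors of the interferon response, and 24 genes that interferon is known to induce. All 39 were found by Ensembl identifier among the 48162 genes of the count table. The rule that lists them uses symbols and no measured value, but the list was drawn up with earlier results of these data known. The 3 si-CNN3#1 samples received a small interfering RNA (siRNA) against CNN3, which encodes the actin-binding protein calponin 3, and the 3 si-NC samples received a control siRNA. Both groups were the same unmodified line in DMEM with 10% fetal bovine serum, the medium with the transfection reagent was replaced after 24 h by the labels, and RNA was taken at 48 h. For the medium change the Methods give a shorter time than the labels. The study sequenced these samples to find transcripts that change when CNN3 is reduced, and it describes the replicates as biological and the experiments as independent. Each sample therefore held transfection reagent and a duplex, and no untransfected or mock-transfected sample was analysed here. A level shared by both groups cannot be told apart from the line's own resting level. With 1 siRNA against CNN3, loss of CNN3 and any other effect of that duplex cannot be told apart.

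Cells recognise foreign double-stranded RNA in the cytoplasm through RIG-I (DDX58, called RIGI in newer annotation) and MDA5 (IFIH1), and in endosomes through TLR3. RIG-I and MDA5 signal through the mitochondrial adaptor MAVS to IRF3 and IRF7, which switch on interferon genes, and secreted interferon then acts through its receptors on a complex that includes STAT2 and IRF9. That complex binds an element built from GAAA repeats, the interferon-stimulated response element, in front of many genes whose products block viral entry, translation and replication. PKR (EIF2AK2) and the OAS enzymes bind double-stranded RNA directly and are themselves induced by interferon.

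The duplexes are shown because they are the RNA that the 2 groups received. Their sense strands are given 5′ to 3′ with the part that forms the duplex in capitals and the overhang in lower case.
si-CNN3#1: GCAGAUGGGAACCAACAAAtt
si-NC: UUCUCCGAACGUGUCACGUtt
Both strands have 21 bases, of which 19 form the duplex and 2 form the overhang. G and C make up 9 of the 19 bases (47.4%) in si-CNN3#1 and 10 of the 19 (52.6%) in si-NC. Endosomal sensors of single-stranded RNA are known to prefer G and U, which number 6 in the sense strand of si-CNN3#1 and 10 in that of si-NC. The antisense strands were neither counted nor searched, so these numbers do not rank the duplexes. The words UGUGU and GUCCUUCAA, which are known to stimulate endosomal sensors, occur in neither sense strand. TLR7 and TLR8, endosomal sensors of this kind, had at most 2 counts in any sample and were not tested.

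Matches to a motif of the interferon-stimulated response element are shown next, for genes that the results below turn on. Whether interferon acts through them in these cells was not tested. RefSeq promoter windows on GRCh38.p14, from 250 bases before to 50 bases after a gene's start, were available for 30 of the 39 genes. The motif searched, on either strand, was GAAA, any 2 bases and GAAA again. It stood in the window of 22 of the 30 genes (73.3%), and in 1195 of all 27305 genes with a window (4.38%). Each line gives the gene, then 30 bases 5′ to 3′ on the gene's own strand with the match in capitals.
ISG15, chr1:1013380-1013409, plus strand: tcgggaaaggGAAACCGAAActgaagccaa
IFIT1, chr10:89392510-89392539, plus strand: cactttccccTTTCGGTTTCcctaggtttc
OAS3, chr12:112938321-112938350, plus strand: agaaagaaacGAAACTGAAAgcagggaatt
IFITM1, chr11:313990-314019, plus strand: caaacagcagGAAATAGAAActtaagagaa
IFITM3, chr11:320876-320905, minus strand: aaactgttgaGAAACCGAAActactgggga
ISG20, chr15:88638937-88638966, plus strand: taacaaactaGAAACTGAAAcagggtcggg
PARP9, chr3:122564322-122564351, minus strand: gggcgcaaagTTTCAGTTTCgcttccctgg
MX1, chr21:41431844-41431873, plus strand: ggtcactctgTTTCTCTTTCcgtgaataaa
BST2, chr19:17405735-17405764, minus strand: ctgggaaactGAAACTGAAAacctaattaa
The match began 107 bases before the start of ISG15, 103 before IFIT1, 143 before OAS3, 40 before IFITM1, 35 before IFITM3, 69 before ISG20, 41 before PARP9, 196 before MX1 and 124 before BST2. In IFIT1, PARP9 and MX1 the motif reads in the reverse direction. PARP9 and DTX3L are read in opposite directions from a shared promoter and hold the same match. The 8 genes with a window and no match were DDX58, OAS1, MAVS, IRF1, IRF9, STAT2, IFI35 and XAF1. The 9 genes without a window were IFIT2, IFITM2, IRF3, IRF7, MX2, OAS2, OASL, DHX58 and USP18. These letters are a description of the windows, not of binding.

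A second element, TTCNNNGAA, is the core of the gamma-activated site, an element through which interferon gamma acts. It was searched after the results for IRF1 had been seen. It stood in 9 of the 30 windows and in 2560 of all 27305 genes with a window (9.38%). The 9 were TLR3, OAS1, IRF1, IRF9, IFITM1, MX1, BST2, IFI27 and IFI35, which include genes that rose, fell and did not pass. In the IRF1 window it begins 124 bases before the start.
IRF1, chr5:132490879-132490907, minus strand: acagcctgatTTCCCCGAAatgacggcac

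Counts on genes summed to between 18147028 and 19026341 in the si-CNN3#1 samples and between 20287139 and 24976517 in the si-NC samples, so each si-NC sample was the deeper. FPKM, counts over the length of the gene and the total of the sample, was used for levels, and tests used the counts. Over the 38 genes that could be tested, the median deviation of a sample from the mean of all 6 was between -0.03 and 0.05 on the log2 scale, and no sample stood apart. CNN3 itself fell to 50.9% of its control level, with a log2 fold change of -0.97 (edgeR's quasi-likelihood test, adjusted p = 2.04e-20). The epithelial keratin KRT7, the most abundant of the 6 epithelial markers listed, stood at 846 FPKM with si-CNN3#1 and 799.8 FPKM with si-NC. Other markers of that list were far lower. In the same order of groups, CDH1 stood at 20.96 and 20.02 FPKM, KRT19 at 6.58 and 6.72 FPKM, and EPCAM at 5.87 and 5.45 FPKM. KRT8 and KRT18 are given further below. Of the 6 leukocyte markers, LILRA4 had no count in any sample, CLEC4C had at most 1, PTPRC at most 18 and CD3E at most 46. CD14 was the exception, with 2190 to 3517 counts, and it was lower with si-CNN3#1 (log2 fold change -0.30, edgeR adjusted p = 7.88e-10). Its part in the results below was not tested.

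**Figure D1:**
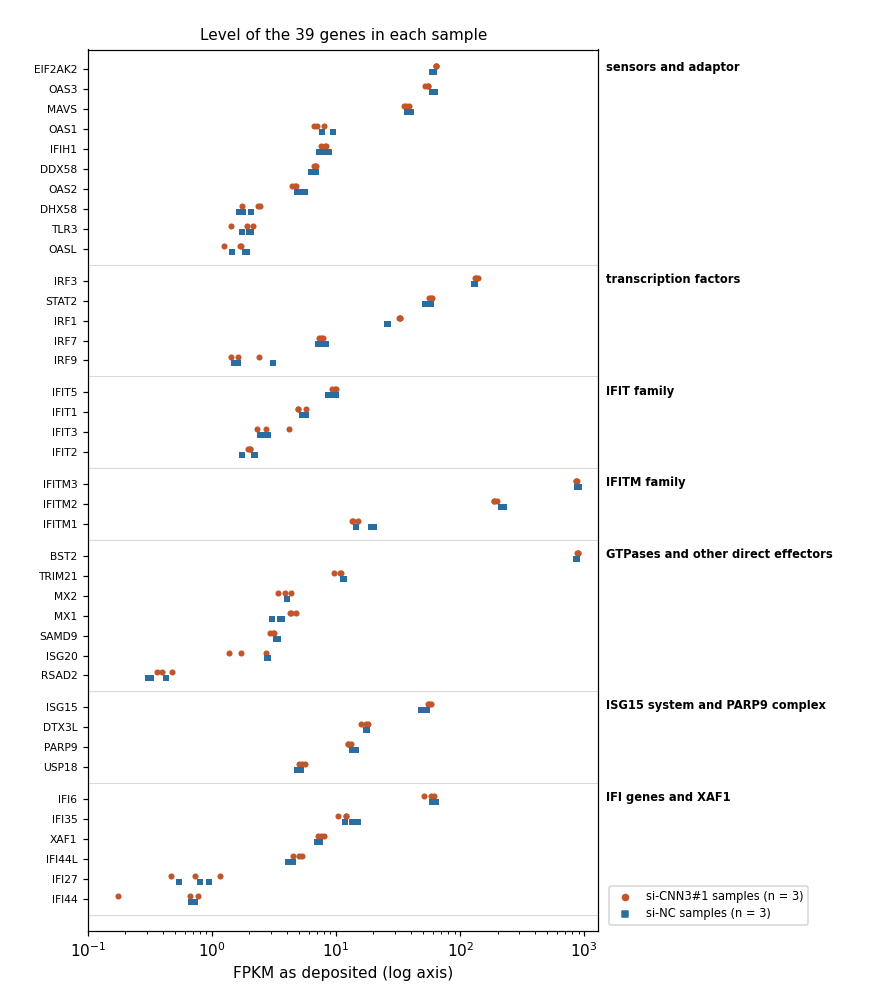
Level of each of the 39 genes in FPKM (log axis), grouped by role, with 1 point for each of the 3 si-CNN3#1 samples (circles) and the 3 si-NC samples (squares). BST2 and IFITM3 lie between 850.0 and 907 FPKM in all 6 samples, RSAD2 lies under 0.5 FPKM, and the points of both groups overlap or lie side by side for each gene.

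The levels of these genes ran over more than 3 powers of 10 in either group. Only 4 genes stood above 100 FPKM in both groups, 12 between 10 and 100, 20 between 1 and 10, and 3 at or under 1. BST2, the membrane protein tetherin that holds budding virions on the cell surface, had 895, 885 and 878 FPKM in the si-CNN3#1 samples and 871, 858 and 873 FPKM in the si-NC samples. By FPKM its groups were separate, but by counts scaled with TMM they overlapped. IFITM3, which blocks the entry of enveloped viruses from endosomes, had 876, 850.0 and 856 FPKM with si-CNN3#1 and 907, 879 and 888 FPKM with si-NC. Both genes stood at the 99.7 percentile of all genes with a count.

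IRF3, the factor that the sensors activate and that is present before any infection, was next in level after IFITM2. It had 131, 139 and 134 FPKM with si-CNN3#1 and 132, 130.2 and 128 FPKM with si-NC, and its groups overlapped. BCL2L12, on the opposite strand, shares 734 of the 3794 exonic bases of IRF3. BCL2L12 had 1220 to 1774 counts against 2384 to 3197 for IRF3, and the strand setting is not given, so the level of IRF3 is uncertain. PKR, encoded by EIF2AK2, halts translation when it binds double-stranded RNA and came after IRF3. It had 64.3, 63.8 and 63.3 FPKM with si-CNN3#1 and 61.2, 61.2 and 58.9 FPKM with si-NC, with every si-CNN3#1 sample above every si-NC sample. Its log2 difference of 0.06 (95% interval 0.00 to 0.12) did not pass the test (edgeR adjusted p = 0.197). These 5 genes were also the top 5 when TMM-scaled counts replaced FPKM.

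Genes that are widely used as reporters of an interferon response were lower than these. ISG15, a ubiquitin-like protein, stood at 54.7, 55.7 and 57.8 FPKM with si-CNN3#1 and 48.6, 50.8 and 53.7 FPKM with si-NC. IFIT1, which binds RNA lacking the methylated cap of the host, stood at 5.72, 4.91 and 4.93 FPKM with si-CNN3#1 and 5.41, 5.32 and 5.72 FPKM with si-NC. RSAD2, the antiviral enzyme viperin, stood at 0.392, 0.475 and 0.363 FPKM with si-CNN3#1 and 0.324, 0.428 and 0.303 FPKM with si-NC. RSAD2 rested on 8 to 13 counts in a sample, overlapped between the groups, and did not pass the filter on low counts, so it was not tested. IFI27 (6 to 16 counts) and IFI44 (3 to 16 counts) were close to that limit, and their 95% intervals, -0.77 to 0.81 and -1.16 to 0.38 on the log2 scale, show how little these depths can resolve.

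**Figure D2:**
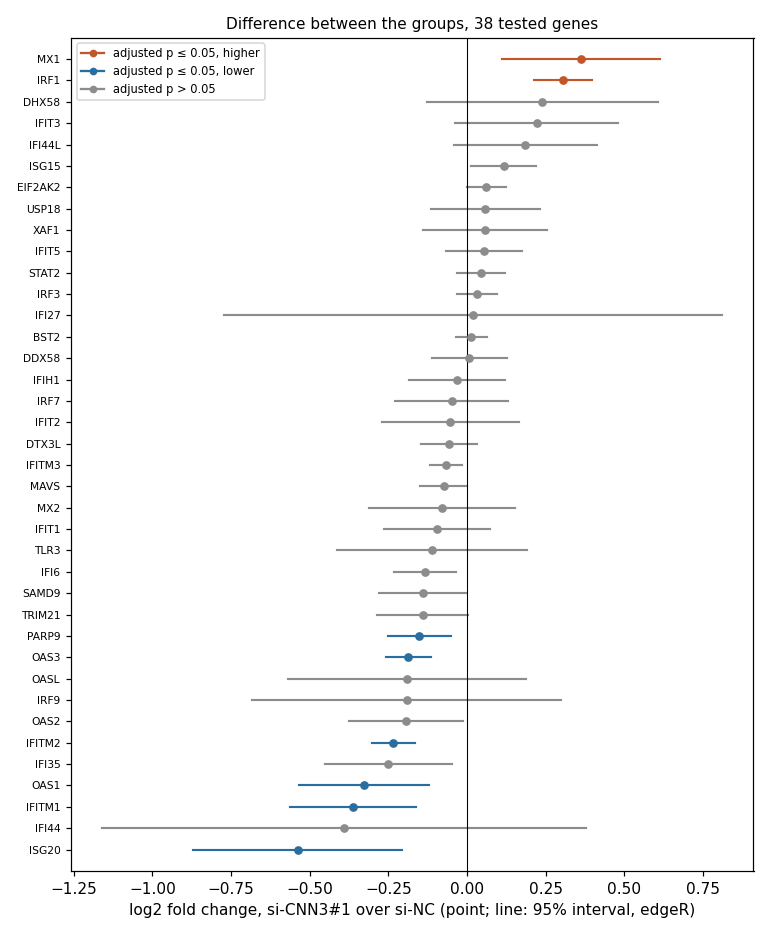
log2 fold change of si-CNN3#1 over si-NC for the 38 tested genes, sorted, with the 95% interval from edgeR as a line. The 2 higher genes past the threshold (IRF1, MX1) and the 6 lower genes (PARP9, OAS3, IFITM2, OAS1, IFITM1, ISG20) are coloured, and the other 30 are grey.

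Between the groups, IRF1 and MX1 rose with si-CNN3#1, and OAS1, OAS3, IFITM1, IFITM2, ISG20 and PARP9 fell. The differences of the 38 tested genes ran from -0.54 (ISG20) to 0.36 (MX1) on the log2 scale. Without si-CNN3#1 replicate 2 that of ISG20 was -0.87 and that of IFI44, which did not pass, was -0.74. In bulk RNA, a change in some of the cells and a change in every cell cannot be told apart. In edgeR's quasi-likelihood test 8 of 38 genes (21.1%) passed the threshold, an adjusted p of 0.05, and so did 13.3% of all 15860 genes that entered it. The 2 higher genes were 5.26% of the 38, against 6.17% of all tested genes, and the 6 lower genes were 15.8%, against 7.14%. With DESeq2 3 of the 38 passed (7.89%), against 7.35% of all tested genes, so the share of these genes that passed was near that of all genes by one tool and above it by the other. IRF1, OAS3 and IFITM2 passed the threshold in all 13 alternative settings tried, and the other 5 did not. The median log2 fold change of the 38 genes was -0.06, with 15 above and 23 below 0, and that of all tested genes was 0.00. The groups did not overlap in 13 of the 38 genes (34.2%), against 28.2% of all tested genes.

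**Figure D3:**
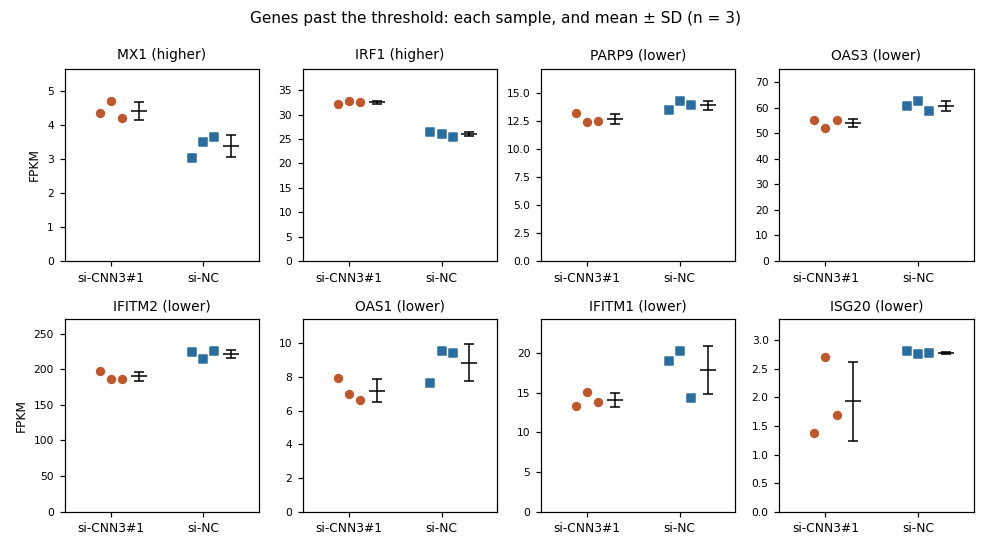
FPKM of the 8 genes past the threshold in each si-CNN3#1 sample (circles) and si-NC sample (squares), with mean and SD (n = 3) beside the points and axes that start at 0. IRF1 and IFITM2 are cleanly separated, whereas OAS1 and IFITM1 overlap and ISG20 has 1 si-CNN3#1 sample close to the si-NC level.

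IRF1 (ENSG00000125347), a transcription factor that is itself induced by interferon gamma and by NF-kB, lies on the minus strand of chromosome 5 from 132481609 to 132490798 (GRCh38). It had 32.1, 32.9 and 32.5 FPKM in the si-CNN3#1 samples and 26.4, 26.1 and 25.5 FPKM in the si-NC samples. All 3 si-CNN3#1 samples were above all 3 si-NC samples, and each group was tight, at 32.5 ± 0.397 and 26 ± 0.467 FPKM (SD, n = 3). The log2 fold change was 0.30 with a standard error of 0.05 (edgeR adjusted p = 8.36e-07), and between 0.29 and 0.32 in the alternatives. An opposite-strand transcript, C5orf56, shares 1716 of the 7799 exonic bases of IRF1 and had 50 to 82 counts against 875 to 1064 for IRF1. None of the other 4 transcription factors passed. IRF1 is 20% of the 5, against 13.3% of all tested genes that passed. IRF7, the inducible factor that amplifies interferon production, had 7.90, 7.54 and 7.23 FPKM with si-CNN3#1 and 7.67, 8.36 and 7.09 FPKM with si-NC. Its groups overlapped (log2 fold change -0.05, 95% interval -0.23 to 0.13). STAT2 stood at 57.6 ± 1.4 and 55.1 ± 2.66 FPKM (SD, n = 3), with an interval of -0.03 to 0.12. IRF9, its partner in the interferon-activated complex, stood at 1.81 ± 0.501 and 2.09 ± 0.899 FPKM (SD, n = 3). IRF9 had 56 counts in si-NC replicate 1 and 23 to 40 in the other samples. It shares 1838 of its 3794 exonic bases with the same-strand gene AL136295.5, so its level is uncertain.

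Among the sensors and their adaptor, OAS1 and OAS3 fell and the other 8 of 10 did not pass. The 2 are 20% of the list, where 7.14% of all tested genes were lower and 13.3% passed in either direction. The OAS proteins make the oligoadenylate messenger that activates RNase L when they bind double-stranded RNA. OAS3 (ENSG00000111331, chromosome 12, 112938352 to 112973249, plus strand) had 55.1, 52.1 and 55.1 FPKM with si-CNN3#1 and 60.9, 62.8 and 58.7 FPKM with si-NC. All si-CNN3#1 samples were the lower, and the log2 fold change was -0.19 with a standard error of 0.04 (edgeR adjusted p = 9.22e-05). OAS1 (ENSG00000089127, chromosome 12, 112906777 to 112933222, plus strand) had 7.94, 6.98 and 6.63 FPKM with si-CNN3#1 and 7.63, 9.52 and 9.45 FPKM with si-NC. Here the groups overlapped, since si-CNN3#1 replicate 1 was above si-NC replicate 1. OAS1 had a log2 fold change of -0.33 with a standard error of 0.10 (edgeR adjusted p = 0.0252). Without si-CNN3#1 replicate 2 or 3 its adjusted p was 0.0878 or 0.133, and without si-NC replicate 2 or 3 it was 0.141 or 0.116. OAS2, the neighbour of both, had a log2 fold change of -0.19 (edgeR adjusted p = 0.164), and OASL, a relative without the enzyme's activity, had -0.19 (adjusted p = 0.589).

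RIG-I and MDA5, the helicases that start the response to cytoplasmic RNA, did not pass. DDX58 had 6.76, 6.87 and 6.59 FPKM with si-CNN3#1 and 6.66, 6.89 and 6.32 FPKM with si-NC. Its log2 fold change was 0.01 with a 95% interval of -0.11 to 0.13. IFIH1 had 7.56, 8.30 and 8.10 FPKM with si-CNN3#1 and 7.32, 8.77 and 8.0 FPKM with si-NC. The groups overlapped in both genes, and the interval for IFIH1 was -0.18 to 0.12. DHX58, encoding LGP2, which lacks the signalling domains of the other 2 helicases, had 41 to 58 counts and an interval of -0.13 to 0.61. TLR3 had 54 to 104 counts and an interval of -0.41 to 0.19. MAVS stood at 37.1 ± 1.84 and 38.6 ± 1.52 FPKM (SD, n = 3), with an interval of -0.15 to 0.00.

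In the IFITM family IFITM1 and IFITM2 fell, all 3 members lay below 0, and the median log2 fold change was -0.23. The 2 calls are 66.7% of a list of only 3 genes, where 7.14% of all tested genes were lower. The small IFITM membrane proteins stiffen membranes against viral fusion. IFITM2 (ENSG00000185201, chromosome 11, 307631 to 315272, plus strand) had 198, 187 and 186 FPKM with si-CNN3#1 and 224, 215 and 225 FPKM with si-NC. The groups were separate, and the log2 fold change was -0.23 with a standard error of 0.03 (edgeR adjusted p = 4.42e-07). IFITM1 (ENSG00000185885, chromosome 11, 313506 to 315272, plus strand) had 13.3, 15.1 and 13.8 FPKM with si-CNN3#1 and 18.9, 20.2 and 14.4 FPKM with si-NC. One si-NC sample, replicate 3, lay within the si-CNN3#1 range. For IFITM1 the log2 fold change was -0.36 with a standard error of 0.10 (edgeR adjusted p = 0.00839). Its adjusted p was 0.0505 without si-CNN3#1 replicate 1 and 0.139, at a log2 fold change of -0.26, without si-NC replicate 2. IFITM3, at the levels given above, missed the threshold with a log2 fold change of -0.07 and an adjusted p of 0.0682 in edgeR, although its groups were separate. The annotated exons of IFITM1 and IFITM2 share 351 bases, and the 3 coding sequences are much alike, so the counting may have divided or dropped reads among them.

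The IFIT family, a group of RNA-binding proteins that block translation, had no member past the threshold in edgeR's test, none at an unadjusted p under 0.05 and none in DESeq2. Of all tested genes 13.3% passed in edgeR and 7.35% in DESeq2, and the share at the unadjusted p was not counted. IFIT1, at the levels given above, had a log2 fold change of -0.10 with an interval of -0.26 to 0.07, and IFIT5 stood at 9.68 ± 0.351 and 9.19 ± 0.652 FPKM (SD, n = 3). IFIT2 stood at 2.0 ± 0.0526 and 2.04 ± 0.254 FPKM (SD, n = 3). The opposite-strand gene LIPA shares 65 of the 4101 exonic bases of IFIT2 and had 1767 to 2578 counts against 123 to 190. IFIT3 varied most, with 4.15, 2.74 and 2.29 FPKM with si-CNN3#1 and 2.51, 2.81 and 2.45 FPKM with si-NC. A single sample, si-CNN3#1 replicate 1, was high. For IFIT3 the log2 fold change was 0.22 (edgeR adjusted p = 0.292), and without si-CNN3#1 replicate 3 it was 0.39 (adjusted p = 0.0430). Without si-CNN3#1 replicate 1 its direction turned, to -0.07 (adjusted p = 0.823).

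Of the 6 direct effectors tested, MX1 rose and ISG20 fell. They are 33.3% of those tested, where 13.3% of all tested genes passed. MX1 (ENSG00000157601, chromosome 21, 41420304 to 41459214, plus strand), a dynamin-like GTPase that traps viral nucleocapsids, had 4.36, 4.72 and 4.21 FPKM with si-CNN3#1 and 3.03, 3.51 and 3.65 FPKM with si-NC. The groups were separate, on 82 to 120 counts per sample. The log2 fold change was 0.36 with a standard error of 0.13 (edgeR adjusted p = 0.0435). This call was lost whichever of the 6 samples was left out, with adjusted p from 0.0516 to 0.184 and log2 fold changes from 0.30 to 0.41. Its paralog MX2 had a log2 fold change of -0.08 (adjusted p = 0.739). ISG20 (ENSG00000172183, chromosome 15, 88636153 to 88656483, plus strand), an exonuclease that degrades single-stranded RNA, had 1.38, 2.71 and 1.70 FPKM with si-CNN3#1 and 2.80, 2.76 and 2.77 FPKM with si-NC. The si-NC samples were almost equal, whereas si-CNN3#1 replicate 2 was close to them and the other 2 were low. Its counts were 39, 77 and 46 with si-CNN3#1 and 85, 103 and 90 with si-NC. For ISG20 the log2 fold change was -0.54 with a standard error of 0.17 (edgeR adjusted p = 0.0211). Its adjusted p was 0.214 at a log2 fold change of -0.35 without si-CNN3#1 replicate 1, 0.114 at -0.46 without si-CNN3#1 replicate 3 and 0.0571 without si-NC replicate 3. Without si-CNN3#1 replicate 2 the change was larger, at -0.87 (adjusted p = 4.72e-04). BST2, with the highest level of all, had a log2 fold change of 0.01 (interval -0.04 to 0.06). TRIM21, a cytoplasmic antibody receptor, and SAMD9, an inhibitor of translation, both had a log2 fold change of -0.14 (adjusted p = 0.210 and 0.191).

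ISG15 and the genes around it gave 1 call among 4 genes, or 25%, where 13.3% of all tested genes passed. ISG15, at the levels given above, was higher in every si-CNN3#1 sample than in any si-NC sample, but its log2 fold change of 0.12 with a standard error of 0.05 missed the threshold (edgeR adjusted p = 0.132). USP18, the protease that removes ISG15 from its targets, had 0.06 (adjusted p = 0.748). PARP9 and DTX3L form a complex that modifies histones and viral proteins in interferon-treated cells. PARP9 (ENSG00000138496, chromosome 3, 122527924 to 122564577, minus strand) had 13.2, 12.4 and 12.5 FPKM with si-CNN3#1 and 13.5, 14.3 and 14.0 FPKM with si-NC. All si-CNN3#1 samples were the lower, by a narrow margin. PARP9 had a log2 fold change of -0.15 with a standard error of 0.05 (edgeR adjusted p = 0.0313). The adjusted p was 0.128 or 0.102 without si-CNN3#1 replicate 2 or 3 and 0.133 or 0.0750 without si-NC replicate 2 or 3. DTX3L, which is read in the opposite direction from the same promoter, stood at 17.1 ± 1.11 and 17.6 ± 0.224 FPKM (SD, n = 3), and its log2 fold change was -0.06 (adjusted p = 0.473). The exons of PARP9 and DTX3L share 217 bases on opposite strands, and whether the counting used strand is not given in the sources used here.

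None of the 5 IFI genes or XAF1 passed edgeR's test, although 2 were lower at an unadjusted p under 0.05, and none passed in DESeq2. The share of all tested genes under that unadjusted p was not counted. IFI6, a membrane protein known to restrict flaviviruses, was the nearest miss, with 51.4, 58.5 and 60.9 FPKM with si-CNN3#1 and 63.1, 63.3 and 58.7 FPKM with si-NC. Its groups overlapped, and its log2 fold change was -0.13 with a standard error of 0.05 (edgeR adjusted p = 0.0593). IFI35, a regulator of innate signalling, had 10.4, 12 and 11.9 FPKM with si-CNN3#1 and 13.4, 15 and 11.8 FPKM with si-NC. By FPKM si-NC replicate 3 fell between the si-CNN3#1 samples, and by TMM-scaled counts the groups were separate. IFI35 had a log2 fold change of -0.25 with a standard error of 0.10 (edgeR adjusted p = 0.0942). IFI44 had 3 counts in si-CNN3#1 replicate 3 and 12 to 16 in the others, with no call. IFI44L and XAF1 had log2 fold changes of 0.18 and 0.06 (adjusted p = 0.322 and 0.785).

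Genes with and without the promoter match each included higher and lower genes. Of the 22 genes with a match, 21 were tested, 1 was higher and 4 were lower, with a median log2 fold change of -0.07. Of all tested genes 6.17% were higher and 7.14% lower. All 8 genes without a match were tested, 1 was higher and 1 was lower, with a median of -0.03. MX1 and ISG20, whose windows printed above both hold a match, differed in opposite directions. IRF1, which rose, holds no match.

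**Figure D4:**
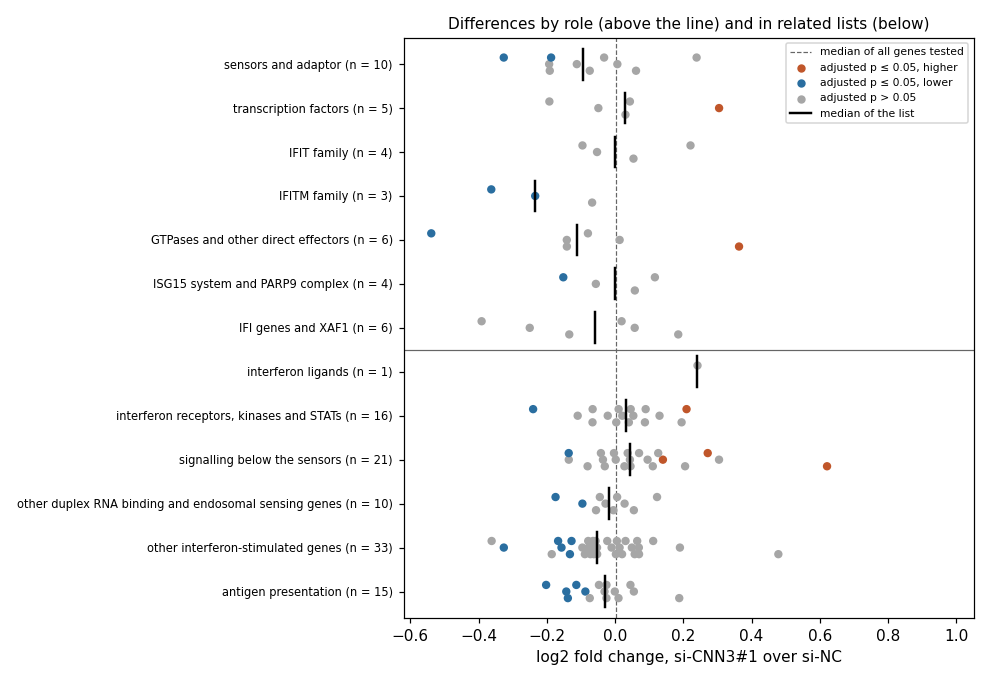
log2 fold change of each tested gene by role (above the line) and in the related lists (below it), with the median of each list as a bar and the median of all tested genes as a dashed line. The list medians lie within 0.24 of 0, and TNFAIP3, at 0.62, is the gene farthest to the right.

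The rest of the pathway was read from 6 further lists. Of their 96 tested genes, 4 were higher and 14 lower with si-CNN3#1, where 6.17% and 7.14% of all tested genes were. Interferon genes themselves gave almost no reads. Of 15 ligand genes, 9 had no count in any sample, which allows up to 0.120 to 0.165 CPM (3 counts) depending on the sample. IFNB1, the interferon first made after sensing of RNA, had 1 count in 1 si-CNN3#1 sample and none in the others. IFNE, which epithelia of the reproductive tract are known to express without infection, was the only ligand tested, on 17, 20 and 22 reads with si-CNN3#1 and 12, 21 and 26 reads with si-NC (log2 fold change 0.24, edgeR adjusted p = 0.684).

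Of 16 receptors, kinases and STATs, IFNGR1 rose and TYK2 fell, which is 12.5% of the list against 13.3% of all tested genes. IFNGR1, the ligand-binding chain of the interferon gamma receptor, stood at 78.0 ± 2.32 and 66.6 ± 2.80 FPKM (SD, n = 3), a log2 fold change of 0.21 (edgeR adjusted p = 4.02e-05). TYK2, the kinase bound to the type I receptor, stood at 107 ± 3.59 and 125 ± 1.79 FPKM (SD, n = 3), a log2 fold change of -0.24 (adjusted p = 3.33e-08). Both calls held in all 13 alternatives. JAK1, the most abundant of the list at 166 and 167 FPKM, had a log2 fold change of -0.02 (adjusted p = 0.701).

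Below the sensors, 3 of 21 genes rose and 1 fell, where 6.17% of all tested genes were higher and 7.14% lower. In either direction 13.3% of all tested genes passed. TNFAIP3, encoding A20, a ubiquitin-editing enzyme that restrains NF-kB, was counted 904, 861 and 833 times with si-CNN3#1 and 609, 737 and 649 times with si-NC. In spite of the deeper si-NC samples every si-CNN3#1 count was the higher, and the level was 35 ± 1.03 against 22.5 ± 0.197 FPKM (SD, n = 3). The log2 fold change of 0.62 with a standard error of 0.05 (edgeR adjusted p = 2.36e-14) lay outside the range of the main set. CYLD, a deubiquitinase that also restrains NF-kB, stood at 56.6 ± 1.51 and 46.3 ± 0.931 FPKM (SD, n = 3), a log2 fold change of 0.27 (adjusted p = 8.05e-10). CHUK, a kinase of the NF-kB pathway, had 0.14 (adjusted p = 0.0286), and TMEM173, encoding the DNA-response adaptor STING, had -0.14 (adjusted p = 0.0399). The calls of TNFAIP3 and CYLD held in all 13 alternatives. CHUK kept its call in 2 of the 6 fits that each left out 1 sample, with adjusted p from 0.0622 to 0.149 without si-CNN3#1 replicate 2 or 3 or si-NC replicate 2 or 3. TMEM173 kept its call in 1 of the 6, without si-CNN3#1 replicate 3, and its adjusted p ran from 0.0534 to 0.178 in the other 5. RELA, the most abundant of the list at 85.8 and 83.2 FPKM, had a log2 fold change of 0.03 (adjusted p = 0.712).

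Of 10 tested genes for other duplex RNA binding and endosomal sensing, ADAR and UNC93B1 fell. They are 20% of those tested, where 13.3% of all tested genes passed in either direction and 7.14% were lower. ADAR, the enzyme that edits adenosines in double-stranded RNA, had a log2 fold change of -0.10 (edgeR adjusted p = 0.00622). UNC93B1, which carries endosomal receptors such as TLR3 to their compartment, had -0.17 (adjusted p = 0.00640).

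Other interferon-stimulated genes, a list of 38, had 33 genes tested, 0 higher and 5 lower in edgeR's test. The 5 lower genes are 15.2% of those tested, against 7.14% of all tested genes that were lower. Of all tested genes 6.17% were higher, and 13.3% passed in either direction. At an unadjusted p under 0.05 in edgeR 1 gene of the list was higher and 6 were lower. How many of all tested genes lay under that unadjusted p was not counted, so these counts have no background share. DESeq2 called 0 higher and 5 lower, where it called 7.35% of all tested genes in either direction. SAMHD1, which hydrolyses the nucleotides that viruses need, fell most among those that passed. Its counts were 862, 837 and 799 with si-CNN3#1 and 1130, 1415 and 1156 with si-NC, or 20 ± 0.423 against 24.7 ± 0.806 FPKM (SD, n = 3). Each si-CNN3#1 sample was the lower, and the log2 fold change was -0.33 with a standard error of 0.05 (edgeR adjusted p = 1.89e-07). The others were PML (log2 fold change -0.16), the scaffold of nuclear bodies, PARP10 (-0.17), LGALS3BP (-0.13) and LY6E (-0.13). LY6E, a surface protein that hinders coronavirus entry, was the most abundant gene of the list at 813 ± 10.0 and 878 ± 9.75 FPKM (SD, n = 3). All 5 calls held in all 13 alternatives. The chemokines CXCL10 and CXCL11, which respond strongly to interferon gamma, had too few counts to be tested, and the list's highest untested count was 10.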

How the data were processed

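RNA from 3 si-CNN3#1 and 3 si-NC samples of SiHa cells had been made into libraries with an Illumina TruSeq RNA kit. Per the labels, the submitters' processing notes name TopHat2 2.0.9, Bowtie2 2.0.6, HTSeq and DESeq 1.10.1. The genome build, annotation and strand setting are not given in the sources used here. The authors deposited raw counts per Ensembl gene, and FPKM values that the authors computed from the same counts. For 30502 of 30502 genes with a count, FPKM equalled count over a whole gene length and the column total within 0.01 base.

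Genes were named from GENCODE 29 (GRCh38), which holds 45342 of 48162 identifiers. The other 2820 were kept without a name, and those that passed the filter were tested. IKBKE, IKBKG, CCL5 and PECAM1 of the related lists were not matched and have no value here. Counts were tested with edgeR 4.0.16 in R 4.3.3 (TMM, filterByExpr, quasi-likelihood test, condition only) over 15860 genes, with Benjamini-Hochberg adjustment and a threshold of 0.05. Replicates varied by a common biological coefficient of 0.0232, and standard errors and 95% intervals come from this fit. All p-values, intervals and counts of calls rest on this small spread, and its source was not tested. At an adjusted p of 0.05 the study, with DESeq, reported far fewer genes than were called here. Alternatives were RLE or total-count scaling, DESeq2 1.42.0, the replicate number as a block, no filter, a filter of 10 counts in each sample, thinned counts, and each sample left out. edgeR and DESeq2 were tested on simulated data with known changes. Within a group, samples differed beyond counting noise (1.56 to 1.98 chi-square units per degree of freedom), so none was merged. Floors of 3 counts cover counting error only. Promoter windows and start sites are RefSeq's.

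The genes and the lists were chosen with earlier results of these data known. Sample values are given for the genes past the threshold, the 3 nearest misses, the 5 highest by FPKM, and IFIT1, ISG15, MX1, OAS1, DDX58, IFIH1, IRF7 and RSAD2. From the other lists the genes past the threshold and the most abundant are named, except a few that are not reported here. CD14 and the other markers named beside it, the members with 1 outlying sample, TLR7, TLR8 and the low chemokines were named after their values were seen.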

Additional observations from a re-analysis of the deposited data

How the results depend on the processing

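IRF1, OAS3 and IFITM2 kept their direction and their call in all 13 alternatives. None of the 38 tested genes reversed where it was called, and 29 of the 38 stayed on the same side of the threshold in every alternative that gave them a value (11 for IFI27, 12 for IFI44 and 13 for the others). With DESeq2 1165 genes in all and 3 of the 38 (1 higher, 2 lower) passed, and the cause was not tested. The adjusted p in DESeq2 was 0.160 for OAS1, 0.0808 for IFITM1, 0.204 for MX1, 0.135 for ISG20 and 0.142 for PARP9. Leaving out each sample in turn, with fewer samples in the fit, gave 4 to 7 calls among the 38, 14 to 18 in the related lists, 1551 to 1747 over all genes and -1.06 to -0.92 for CNN3. The count was 5 without si-CNN3#1 replicate 2 and 4 without si-NC replicate 2. The median log2 fold change of the 38 genes then ran from -0.0772 to -0.0318, the last without si-CNN3#1 replicate 3. Scaling by total counts turned the split of all calls from 978 higher and 1133 lower to 1294 higher and 863 lower, moved the median of all tested genes to 0.02, and gave 2 higher and 5 lower among the 38, without PARP9 (adjusted p = 0.0631). Thinning to the smallest total, with 15675 genes tested, gave 6 calls among the 38. It lost OAS1, MX1 and PARP9 (edgeR adjusted p = 0.0768, 0.0688 and 0.0626) and gained IFI6 (0.0496). No filter, with 30502 genes tested, gave 9 calls among the 38. It lost MX1 (edgeR adjusted p = 0.0662) and gained IFI6 and IFITM3. Calls over all genes in these settings are not given here, so the counts of 6 and 9 have no background share. Whether the replicate numbers pair the samples was not settled. Correlations of same-numbered deviations were small, at 0.01 to 0.03, but each sample correlated best with its own number. A fit with the replicate number as a block called 2727 genes, and 10 of the 38, the 8 and IFI6 and IFITM3, and it gave 20 calls in the related lists, a median of -0.06 and -0.97 for CNN3. A motif shorter by its last base stood in 22 of the 30 windows and in 9.86% of all genes. Genes under about 20 counts, such as RSAD2, IFI27 and IFI44, are limited by depth.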

Other observations

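Genes of antigen presentation, which interferon gamma is known to raise, gave 5 calls of 15 tested, all lower with si-CNN3#1 and 0 higher (edgeR's quasi-likelihood test; 6.17% of all tested genes were higher and 7.14% lower). At an unadjusted p under 0.05 in edgeR 0 of the 15 were higher and 5 lower, and here too all tested genes were not counted. DESeq2 called 0 higher and 3 lower, where it called 7.35% of all tested genes in either direction. B2M, the light chain shared by all class I molecules, was counted 16417, 16979 and 16112 times with si-CNN3#1 and 18246, 23414 and 20522 times with si-NC. It was the most abundant gene of the list at 960.0 ± 13.3 and 1008 ± 26.2 FPKM (SD, n = 3), and its log2 fold change was -0.09 (edgeR adjusted p = 0.00966). The call of B2M was lost without si-NC replicate 3 (adjusted p = 0.0856). HLA-C, a class I heavy chain, stood at 66.7 ± 1.1 and 75.8 ± 3.73 FPKM (SD, n = 3), a log2 fold change of -0.20 (adjusted p = 4.83e-05). TAPBP, the chaperone tapasin that loads peptides, had a log2 fold change of -0.14 (adjusted p = 9.01e-04). The calls of HLA-C and TAPBP held in all 13 alternatives. HLA-E had a log2 fold change of -0.11 (adjusted p = 0.0454) and kept its call in 1 of the 6 fits that each left out 1 sample, with adjusted p from 0.0522 to 0.358 in the other 5. Class I heavy chains are near copies of each other and vary between genomes, so their reads may have been divided or dropped by the counting. The motif of GAAA repeats stood in the promoter window of 9 of 12 antigen presentation genes, 17 of 29 other interferon-stimulated genes, 1 of 13 receptors, kinases and STATs and 2 of 17 genes below the sensors.

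The keratins KRT8 and KRT18, which mark simple epithelia, were lower with si-CNN3#1 (log2 fold changes -0.19 and -0.18, edgeR adjusted p = 4.87e-07 and 5.31e-05). KRT7 was not (log2 fold change 0.06, adjusted p = 0.0832). COL1A1, the most abundant of 5 fibroblast and endothelial markers, stood at 3.42 and 3.85 FPKM.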
